A study of Mus musculus with 12 samples.

Results

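Genes of mitosis and of DNA replication were followed in sorted mouse mammary cells with and without Wnt4. The members were listed by function, with earlier results of these data known: 27 mitotic genes and 13 replication genes, 40 in all. Of these, 39 were measured (26 mitotic and 13 replication genes) among 19938 genes, and the cyclin B1 gene Ccnb1 was not analysed here. The cells came from female mice aged 10 to 14 weeks, and RNA of each sample was hybridised to 1 Affymetrix gene array, 12 in all. Wnt4-deleted cells had the genotype MMTV::Cre+.Wnt4fl/fl.mT/mG and WT cells MMTV::Cre+.Wnt4wt/wt.mT/mG, so cells of both genotypes carried the Cre recombinase under the MMTV promoter and the mT/mG reporter, which turns on GFP where Cre has acted. After depletion of other lineages, GFP+ cells were sorted by the surface protein CD24 into CD24 high cells, labelled luminal, and CD24 low cells, labelled myoepithelial. The 4 groups of 3 arrays were Wnt4-deleted CD24 high (title numbers 4, 12 and 16), WT CD24 high (2, 10 and 14), Wnt4-deleted CD24 low (3, 11 and 15) and WT CD24 low (1, 9 and 13). The design text names glands and the treatment text grafts as the tissue, and which was digested could not be settled.

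A cell that divides copies its DNA in S phase and parts the copies in mitosis. Before S phase the MCM helicase is loaded onto origins, and it is then activated by Cdc45 and the GINS complex. In mitosis cyclin-dependent kinase 1 and the Aurora and Polo kinases drive spindle assembly, kinetochores attach chromosomes to microtubules, and kinesins and anillin carry the cell through division. Transcripts of replication genes peak around the start of S phase, under E2F factors, whereas those of mitotic genes peak in G2 and mitosis, where a short promoter element, the cell cycle genes homology region (CHR), is known to take part. In the mammary epithelium the adult luminal cells divide more in some hormonal states than in others.

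The promoters of 3 mitotic and 3 replication members are shown to let the elements be compared by eye. Mki67, Cdk1 and Prc1 hold a CHR, which was more frequent in the mitotic list. Mcm6 holds E2F matches, which were more frequent in the replication list, and Mcm2 and Pcna hold no E2F match. Promoter windows of RefSeq (build GRCm38.p6), 300 bases long with 250 before and 50 after the start of the gene, were found for 32 of the 39 measured members, 35 windows in all. They were searched on both strands for the CHR letters TTTGAA, for the CCAAT box, and for the E2F letters TTTCCCGC, TTTCGCGC, TTTGCCGC and TTTGGCGC. E2F matches on opposite strands can overlap, as in Mcm6, where they run together. The 150 bases before the start are printed 5′ to 3′ with each match in capitals. They lie at chr7:135716380-135716529 on the minus strand for Mki67, at chr10:69352913-69353062 on the minus strand for Cdk1 and at chr7:80294326-80294475 on the plus strand for Prc1. The replication genes lie at chr1:128359706-128359855 on the minus strand for Mcm6, at chr6:88898781-88898930 on the minus strand for Mcm2 and at chr2:132253181-132253330 on the minus strand for Pcna.
Mki67: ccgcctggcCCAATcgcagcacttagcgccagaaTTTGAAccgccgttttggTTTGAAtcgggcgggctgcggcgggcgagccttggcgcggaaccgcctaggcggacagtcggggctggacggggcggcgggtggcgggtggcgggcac
Cdk1: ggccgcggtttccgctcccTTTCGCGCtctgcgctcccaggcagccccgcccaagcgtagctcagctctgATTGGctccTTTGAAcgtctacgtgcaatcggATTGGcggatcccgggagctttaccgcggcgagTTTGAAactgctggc
Prc1: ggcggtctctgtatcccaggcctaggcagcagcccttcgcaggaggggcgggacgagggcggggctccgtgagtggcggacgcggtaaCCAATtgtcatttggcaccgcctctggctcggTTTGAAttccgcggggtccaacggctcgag
Mcm6: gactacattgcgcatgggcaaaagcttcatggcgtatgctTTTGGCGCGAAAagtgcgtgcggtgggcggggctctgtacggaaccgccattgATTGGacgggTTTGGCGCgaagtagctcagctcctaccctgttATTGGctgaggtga
Mcm2: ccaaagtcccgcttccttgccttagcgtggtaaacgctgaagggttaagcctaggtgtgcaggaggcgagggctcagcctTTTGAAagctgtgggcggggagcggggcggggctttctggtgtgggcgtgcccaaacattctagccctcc
Pcna: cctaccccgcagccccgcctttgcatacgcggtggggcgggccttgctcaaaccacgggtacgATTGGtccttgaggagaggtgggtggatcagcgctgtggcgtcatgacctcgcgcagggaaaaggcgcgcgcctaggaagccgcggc

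A CHR was present in 19 of 24 windows of 22 mitotic genes (79.2%) and in 2 of 11 windows of 10 replication genes (18.2%), against 17.9% of all 32851 promoter windows. The E2F letters were in 1 of the 24 mitotic windows (4.17%) and in 5 of the 11 replication windows (45.5%), against 2.26% of all windows. The CCAAT box was common in both lists, with 75% of mitotic and 90.9% of replication windows, against 37.4% of all windows. Among the printed sequences, Mki67 and Cdk1 each hold 2 CHR matches and Prc1 holds 1, each with a CCAAT box, and Cdk1 also holds 1 E2F match. Mcm6 holds 3 E2F matches, 2 CCAAT boxes and no CHR. Mcm2 goes the other way within the replication list, with 1 CHR and no E2F match, and Pcna holds only a CCAAT box, read on the other strand. The same split appeared in longer lists of other genes of the same processes: 59.3% of 54 windows of other mitotic genes held a CHR and 9.26% the E2F letters, against 18.4% and 30.6% of 49 windows of other replication genes. A match of letters is a description of the sequence and no measure of binding. The bar plot of motif shares shows the 5 sets of windows side by side.

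**Figure D1:**
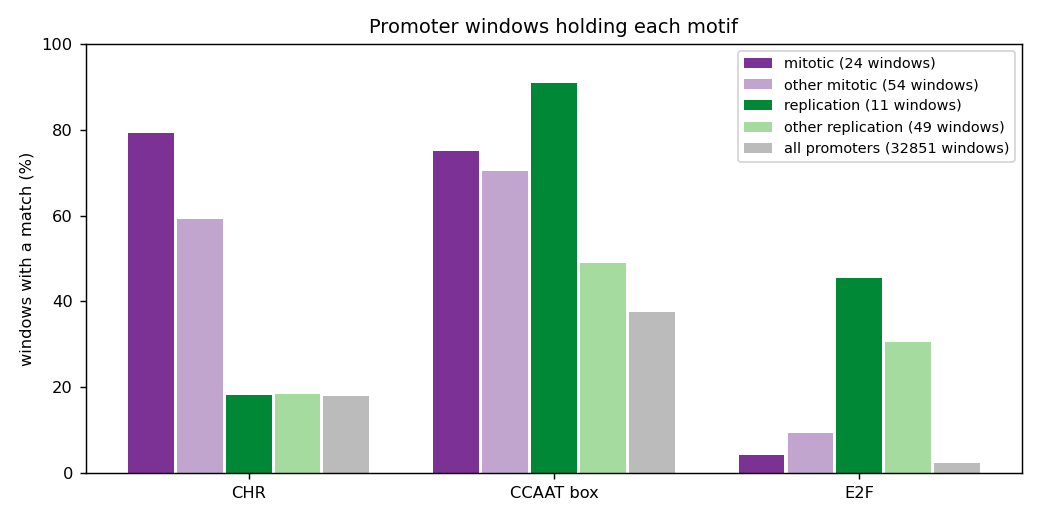
Share of RefSeq promoter windows (percent, 300 bases each) with at least 1 match on either strand to the CHR, the CCAAT box or the E2F letters, for mitotic, other mitotic, replication and other replication genes and for all promoters. The CHR stands out in the mitotic windows (79.2%) and the E2F letters in the replication windows (45.5%), against 17.9% and 2.26% of all windows.

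The files give log2 values after RMA, with array medians between 5.64 and 5.82, and arrays have no read depth, so the precision is limited by their number. The targeted gene Wnt4 read 6.11, 6.46 and 6.78 in Wnt4-deleted CD24 high cells, against 7.42, 7.92 and 7.62 in WT CD24 high cells. The CD24 low arrays read 6.20, 6.66 and 6.28 in Wnt4-deleted cells and 6.49, 6.45 and 6.63 in WT cells. Wnt4 thus separated the genotypes in CD24 high cells, and its values overlapped in CD24 low cells, where it does not check the labels. Luminal markers averaged 10.31 to 10.70 on the CD24 high arrays and 7.74 to 8.18 on the CD24 low arrays, and myoepithelial markers 6.05 to 6.93 and 10.68 to 11.11 in the same order, so both fractions carried the markers of their label. The title numbers fall into 3 runs, 1 to 4, 9 to 12 and 13 to 16, each with 1 array of every group. What these runs stand for is not given in the labels, so they are called sets of title numbers. They matter for these genes and are given with each result. Nothing in the labels says which arrays share an animal, so a p-value here reflects only how much these arrays vary. Levels of a group are given below in the order of its title numbers.

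The members were far higher on some arrays than on others. The mean log2 intensity of the 26 mitotic genes was 7.35, 5.81 and 5.35 in Wnt4-deleted CD24 high cells, against 5.75, 5.10 and 5.45 in WT CD24 high cells. The CD24 low arrays gave 7.16, 5.85 and 5.09 in Wnt4-deleted cells, against 6.18, 4.80 and 5.08 in WT cells. Arrays 3 and 4, the Wnt4-deleted samples of the first set, thus stood above the other 10, and within each fraction the groups overlapped. The 13 replication genes averaged 7.91, 6.56 and 6.37 in Wnt4-deleted CD24 high cells, against 6.71, 6.70 and 7.08 in WT CD24 high cells. For the CD24 low arrays the averages were 7.48, 6.38 and 6.47 in Wnt4-deleted cells, against 7.30, 6.51 and 6.65 in WT cells. Here too arrays 3 and 4 were high, but array 1 was near array 3 and the WT CD24 high array 14 was above Wnt4-deleted arrays 12 and 16. In these bulk samples, a larger share of dividing cells and more transcript per dividing cell cannot be told apart.

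**Figure D2:**
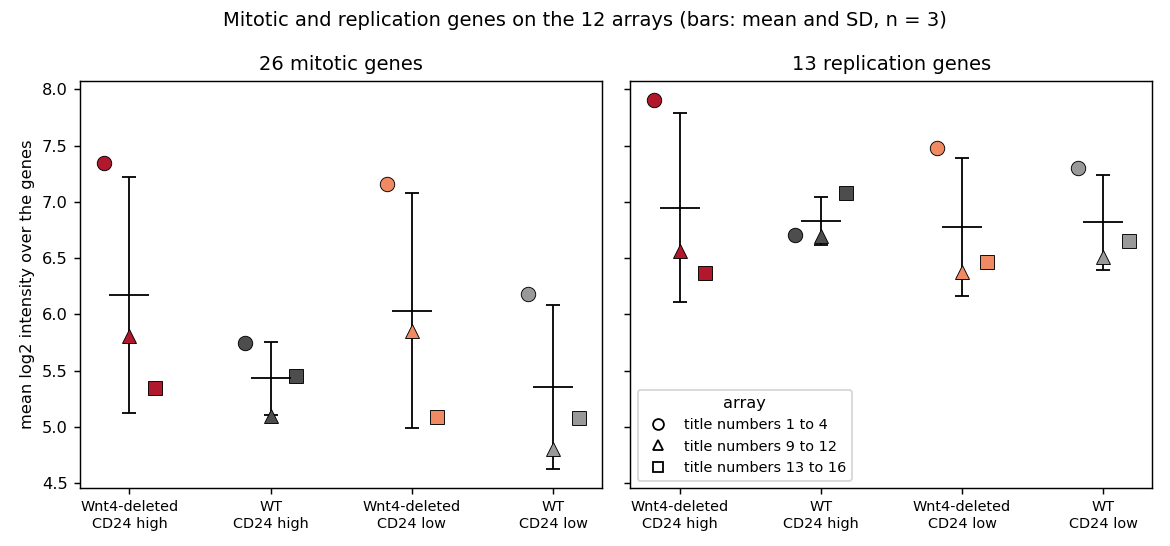
Mean log2 intensity over 26 mitotic genes (left) and 13 replication genes (right) on each of 12 arrays, by group; circles, triangles and squares are the sets 1 to 4, 9 to 12 and 13 to 16, and bars give the group mean and SD (n = 3). The mitotic mean was 7.35 on array 4 and 7.16 on array 3, and between 4.80 and 6.18 on the other arrays.

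The same arrays led gene by gene. Array 4 held the highest value of the 6 CD24 high arrays for all 39 members, where it did so for 19.9% of all genes. Array 3 held the highest of the 6 CD24 low arrays for 35 members, all 26 mitotic genes among them, where it did so for 20% of all genes. Both CD24 low arrays of the first set, 3 and 1, lay above the other 4 CD24 low arrays for 32 of the 39 members, against 15.9% of all genes; the exceptions were Aurka, Plk1, Cenpe, Cenpf, Mki67, Cdc6 and Pcna. In CD24 high cells the corresponding arrays 4 and 2 lay above the other 4 for 8 members (20.5%), 7 of them mitotic, against 8.74% of all genes. At the low end, array 10 was the lowest CD24 high array for 19 of the 26 mitotic genes, against 13.6% of all genes. Array 9 was the lowest CD24 low array for 17 of the 26, against 13% of all genes. The replication genes were lowest elsewhere, with array 16 the lowest CD24 high array for 7 of 13, against 14.8% of all genes.

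**Figure D3:**
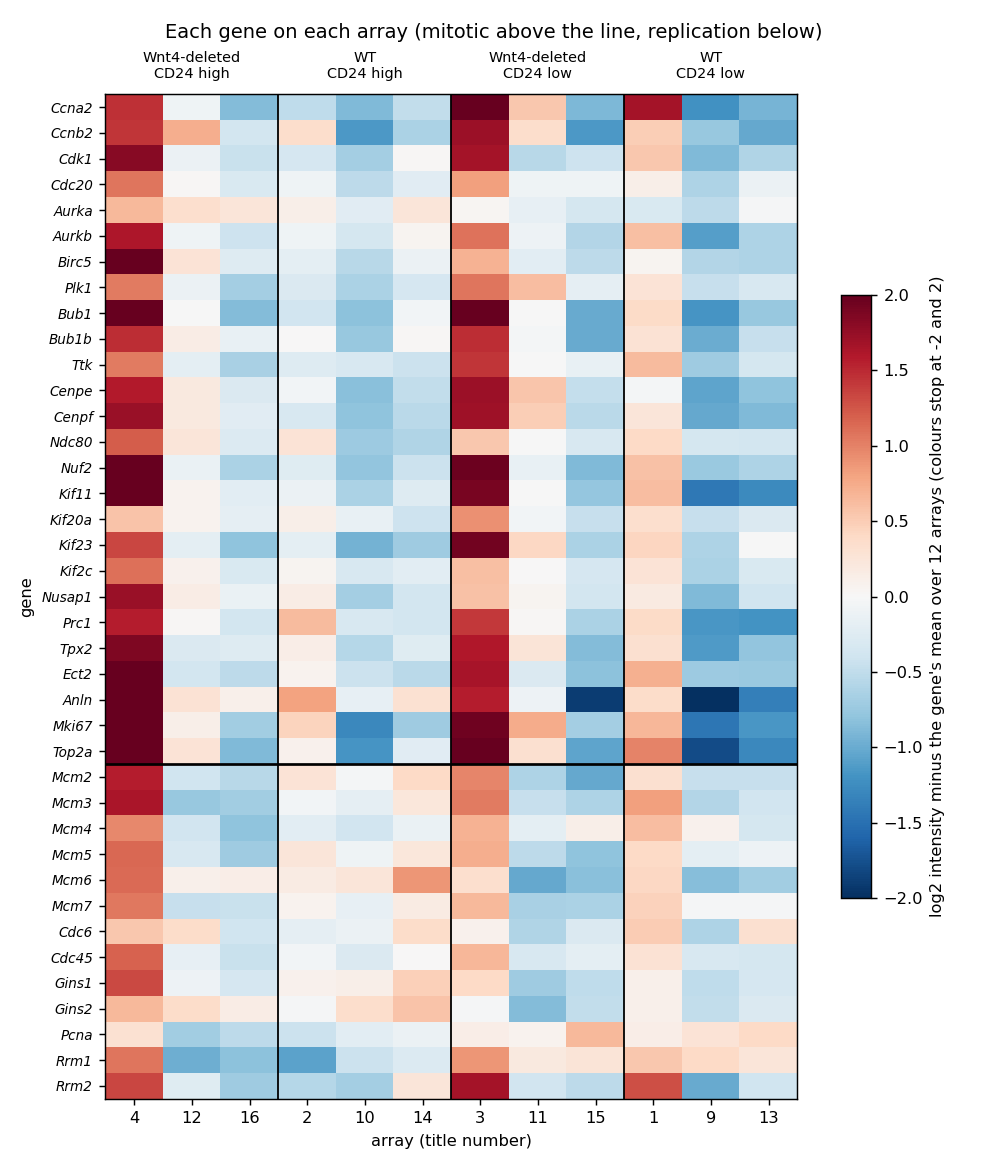
Log2 intensity of each of 39 genes (rows, mitotic above the line and replication below) on each of 12 arrays (columns, title numbers, by group), minus the mean of that gene over the 12 arrays. Array 4 is the highest CD24 high array for all 39 genes and array 3 the highest CD24 low array for 35. Pcna, near the bottom, runs from 9.98 (Wnt4-deleted CD24 high) to 11.32 (Wnt4-deleted CD24 low).

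The sets were tested with an F test of their 2 terms beside the group means, in limma with Benjamini-Hochberg adjustment over all genes. Of the 39 members 1 passed, the spindle midzone protein Prc1, where 0.0351% of all genes did. Prc1 read 7.83, 6.89, 7.66 and 6.64 on arrays 4, 2, 3 and 1. On arrays 12, 10, 11 and 9 it read 6.27, 5.93, 6.28 and 5.09, and on arrays 16, 14, 15 and 13 it read 5.88, 5.89, 5.62 and 5.06. All 4 arrays of the first set were above the 8 others, with set means of 7.26, 5.89 and 5.61 (F = 56.3, limma adjusted p = 0.029). Next came the kinetochore gene Ndc80, with set means of 6.14, 5.32 and 5.14 (limma adjusted p = 0.0864), and Mki67, whose protein coats mitotic chromosomes, with 8.01, 6.26 and 5.92 (limma adjusted p = 0.0904). Neither passed. Of the replication genes Mcm3 and Mcm2, subunits of the helicase, had the smallest p. Mcm3 had set means of 6.89, 5.53 and 5.66 (limma adjusted p = 0.226) and Mcm2 of 7.46, 6.29 and 6.26 (limma adjusted p = 0.229).

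Without adjustment, 25 of 26 mitotic genes (all but Aurka) and 9 of 13 replication genes (all but Cdc6, Gins2, Pcna and Rrm1) had a set p under 0.05, against 11.9% of all genes. The mean of the first set was the highest for 26 mitotic and 12 replication genes, against 40.5% of all genes. Relative to the set 9 to 12, the first set was higher by a median of 1.21 (0.27 to 2.05) over the mitotic and 0.80 (0.18 to 1.51) over the replication genes, on the log2 scale. Relative to the set 13 to 16 the medians were 1.35 and 0.77, and over all genes the medians were 0.03 and 0.01. The set call depends on single arrays. Leaving out array 2 gave 34 members called, with 5.65% of all genes called, and leaving out any other array gave 0.

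Markers of other cell types differed between the sets as well. On arrays 3 and 1, skeletal muscle markers averaged 7.91 and 7.02, against 5.43 to 5.70 on the other 4 CD24 low arrays, while endothelial markers averaged 6.41 and 6.52, against 8.04 to 9.22. Fibroblast markers were high on arrays 11 and 9 (8.52 and 8.98), against 6.18 to 6.83 on the other CD24 low arrays, and immune markers ran from 4.74 to 6.12 over the CD24 low arrays. On the CD24 high arrays the skeletal muscle markers averaged 5.17 to 5.47, the endothelial markers 4.87 to 6.19 and the immune markers 4.31 to 4.59. Array 4 was within the range of the other CD24 high arrays for skeletal muscle and immune markers and lowest for endothelial markers, at 4.87. Genes of oxidative phosphorylation averaged 10.52 on array 4 and 9.50 on array 2, the highest and the lowest of the CD24 high arrays. The part of these differences in the levels of the mitotic and replication genes was not tested.

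In CD24 high cells, every measured mitotic gene had a higher mean in Wnt4-deleted than in WT cells, and no member passed the test. The log2 difference of the 26 mitotic genes had a median of 0.74 (0.30 to 1.12), and that of the 13 replication genes a median of 0.07 (-0.09 to 0.47), against -0.03 over all genes. A difference above 0 was found for 26 of 26 mitotic and 10 of 13 replication genes, against 43.4% of all genes. At an adjusted p under 0.05, 0 members and 0.00502% of all genes were called in limma, and 0 members had an unadjusted p under 0.05, where 0.742% of all genes were higher at that p. Every adjusted p of the members was 1 in limma. The medians by role were 1.03 for the mitotic chromosome genes Mki67 and Top2a, 0.95 for 4 kinetochore genes and 0.77 for the cyclins, Cdk1 and Cdc20. They were 0.67 for 5 spindle and cytokinesis genes, 0.59 for 4 kinesins and 0.50 for 7 genes (kinases, checkpoint genes and Birc5). Among the replication genes they were 0.41 for the 2 subunits of ribonucleotide reductase, which makes deoxyribonucleotides, 0.11 for 4 genes of helicase loading and activation, and 0.02 for 6 MCM subunits.

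Aurka, the spindle pole kinase, had the smallest p. It read 7.30, 7.0 and 6.90 in Wnt4-deleted CD24 high cells, against 6.77, 6.43 and 6.90 in WT CD24 high cells. The groups met at 6.90, on arrays 16 and 14, and the log2 difference was 0.37 (SE 0.18). Birc5, a subunit of the chromosomal passenger complex, read 8.42, 6.64 and 6.10 in Wnt4-deleted cells, against 6.16, 5.80 and 6.24 in WT cells. Its difference of 0.98 (SE 0.51) went with array 4 far above the other 5 arrays. Nusap1, a spindle microtubule protein, read 6.84, 5.27 and 4.98 in Wnt4-deleted cells, against 5.27, 4.43 and 4.74 in WT cells. Here arrays 12 and 2 were level and array 4 far above both (difference 0.89, SE 0.46).

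The proliferation marker Mki67 read 8.78, 6.84 and 6.04 in Wnt4-deleted CD24 high cells, against 7.17, 5.44 and 6.02 in WT CD24 high cells. Each Wnt4-deleted array was at or above the WT array of its set, but the groups overlapped (difference 1.01, SE 0.84). Top2a, the topoisomerase that untangles sister chromatids, read 8.78, 6.60 and 5.44 in Wnt4-deleted cells, against 6.41, 5.15 and 6.09 in WT cells (difference 1.06, SE 1.01). A dimmer Top2a probeset, not used, stayed between 3.94 and 5.44 over the 12 arrays and did not follow the brighter, which lay up to 4.04 above it on 1 array. Cenpf, a kinetochore protein, was the only member whose groups did not overlap (7.05, 5.53 and 5.10 in Wnt4-deleted cells, against 5.01, 4.53 and 4.79 in WT cells), where 2.04% of all genes were higher without overlap. Its difference was 1.12 (SE 0.59).

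The replication genes showed no such offset in CD24 high cells. Mcm2 read 8.24, 6.28 and 6.12 in Wnt4-deleted cells, against 6.95, 6.63 and 7.07 in WT cells. Array 4 was above and arrays 12 and 16 were below all WT arrays, and the means were equal at 6.88 (difference -0.00, SE 0.58). Pcna, the sliding clamp of DNA polymerase, read 10.98, 9.98 and 10.15 in Wnt4-deleted cells, against 10.25, 10.46 and 10.55 in WT cells, with the same pattern (difference -0.05, SE 0.24). Its other probeset differed by at most 0.04 on any array. Rrm1, the large subunit of ribonucleotide reductase, read 8.89, 6.85 and 7.0 in Wnt4-deleted cells, against 6.75, 7.40 and 7.55 in WT cells (difference 0.34, SE 0.45). Cdc45 read 7.23, 5.88 and 5.60 in Wnt4-deleted cells, against 6.0, 5.77 and 6.06 in WT cells (difference 0.29, SE 0.39). For Mcm2, Pcna, Rrm1 and Cdc45 alike, array 4 held the highest value of the 6. Without array 4 the median of the mitotic genes was 0.13, with 19 of 26 above 0, and that of the replication genes was -0.36, with 0 of 13 above 0. Without array 16 the medians were 1.14 and 0.38. Without both arrays of the first set, 4 and 2, they were 0.24 and -0.45. Then 23 of 26 mitotic and 0 of 13 replication genes were above 0.

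In CD24 low cells the picture was similar. The mitotic genes had a median log2 difference of 0.60 (0.12 to 1.32) between Wnt4-deleted and WT cells, with 26 of 26 above 0, against 45.4% of all genes. The replication genes had a median of -0.02 (-0.34 to 0.29), with 6 of 13 above 0, and the median over all genes was -0.02. Again 0 members were called in limma, against 0.00502% of all genes, 0 had an unadjusted p under 0.05 (1.12% of all genes did, in the higher direction), 0 were higher without overlap (2.65% of all genes) and every adjusted p was 1. By role, the medians were 1.27 for Mki67 and Top2a, 0.86 for spindle and cytokinesis genes and 0.84 for kinetochore genes. They were 0.64 for the cyclins, Cdk1 and Cdc20, 0.53 for the group of kinases, checkpoint genes and Birc5, and 0.48 for kinesins. The MCM subunits had a median of -0.08 and the genes of helicase loading and activation of -0.12.

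Cenpe, a kinetochore motor, had the smallest p and read 6.76, 5.61 and 4.58 in Wnt4-deleted CD24 low cells, against 5.01, 4.0 and 4.24 in WT CD24 low cells. Only array 15 lay below a WT array, array 1 (difference 1.23, SE 0.56). Cenpf read 7.03, 5.82 and 4.79 in Wnt4-deleted cells, against 5.57, 4.30 and 4.44 in WT cells, with the same order of arrays (difference 1.11, SE 0.59). Plk1, the Polo kinase, read 6.56, 6.10 and 5.30 in Wnt4-deleted cells, against 5.75, 5.02 and 5.17 in WT cells (difference 0.67, SE 0.41). In all 3, arrays 3 and 11 were above every WT array and array 15 was not. Mki67 read 8.68, 7.47 and 6.05 in Wnt4-deleted cells, against 7.40, 5.29 and 5.56 in WT cells (difference 1.32, SE 0.84), and arrays 11 and 1 were close. Top2a read 8.62, 6.65 and 5.27 in Wnt4-deleted cells, against 7.31, 4.53 and 5.03 in WT cells, where array 1 was above arrays 11 and 15 (difference 1.22, SE 1.01).

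Of the replication genes, Cdc6, which loads the helicase, read 5.16, 4.48 and 4.79 in Wnt4-deleted CD24 low cells, against 5.59, 4.46 and 5.39 in WT CD24 low cells (difference -0.33, SE 0.33). Gins2, a subunit of the GINS complex, read 7.64, 6.79 and 7.17 in Wnt4-deleted cells, against 7.75, 7.16 and 7.36 in WT cells, slightly below in each set (difference -0.22, SE 0.24). Mcm2 read 7.65, 6.06 and 5.65 in Wnt4-deleted cells, against 7.0, 6.21 and 6.21 in WT cells (difference -0.02, SE 0.58). Pcna read 10.81, 10.75 and 11.32 in Wnt4-deleted cells, against 10.81, 10.95 and 11.07 in WT cells (difference 0.02, SE 0.24). For none of these did the groups separate. Without array 3 the median of the mitotic genes was 0.05, with 17 of 26 above 0. It was 0.31 without array 9, 0.98 without array 1 and 1.13 without array 15. Without array 3 the replication median was -0.44. Without both arrays of the first set, 3 and 1, the mitotic median was 0.47, with 26 of 26 above 0. The replication median was then -0.16.

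Setting each Wnt4-deleted array against the WT array of its own set separated the sets. Within the set 1 to 4 the median difference of the mitotic genes was 1.59 in CD24 high and 1.07 in CD24 low cells. Within the set 9 to 12 it was 0.67 and 1.02 in the same order, and within the set 13 to 16 it was -0.08 and 0.04. Markers of other cell types differed within the same CD24 low pairs. Skeletal muscle markers had a median difference of 0.88 in the set 1 to 4 (8 of 8 higher in the Wnt4-deleted array), 0.30 in the set 9 to 12 (8 of 8) and 0.01 in the set 13 to 16 (4 of 8). Endothelial markers had medians of -0.09 (1 of 8), 1.14 (8 of 8) and 0.04 (6 of 8) in the same order. In the CD24 high pairs the skeletal muscle medians were -0.14, -0.05 and -0.12 and the endothelial medians -0.11, 0.26 and 0.03. Oxidative phosphorylation genes had medians of 0.81 (21 of 21 higher), -0.16 (3 of 21) and -0.05 (5 of 21) there. In the first CD24 high pair, ribosomal protein genes had 0.44 (14 of 15) and myoepithelial markers 0.49 (6 of 8). In the CD24 low pair of the set 9 to 12, fibroblast markers had -0.59 (2 of 7) and immune markers -0.28 (1 of 9). Oxidative phosphorylation genes had -0.34 in that pair (1 of 21). The part of these differences in the mitotic differences was not tested. In the first 2 sets all 26 mitotic genes were higher in the Wnt4-deleted array in both fractions, 4 pairs of arrays in all, against 4.11% of all genes. In the set 13 to 16, 9 of 26 were higher in CD24 high and 15 of 26 in CD24 low cells, against 41.9% and 46.4% of all genes. Most replication genes were higher in the Wnt4-deleted array in the first set only. Their medians in CD24 high cells were 1.18, -0.22 and -0.75 in the sets 1 to 4, 9 to 12 and 13 to 16. Of the 13 genes 13, 4 and 0 were higher, against 42.2%, 49.9% and 41.9% of all genes. In CD24 low cells the medians were 0.22, -0.20 and -0.17. There 10, 3 and 4 of 13 genes were higher, against 48.5%, 47.3% and 46.4% of all genes.

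**Figure D4:**
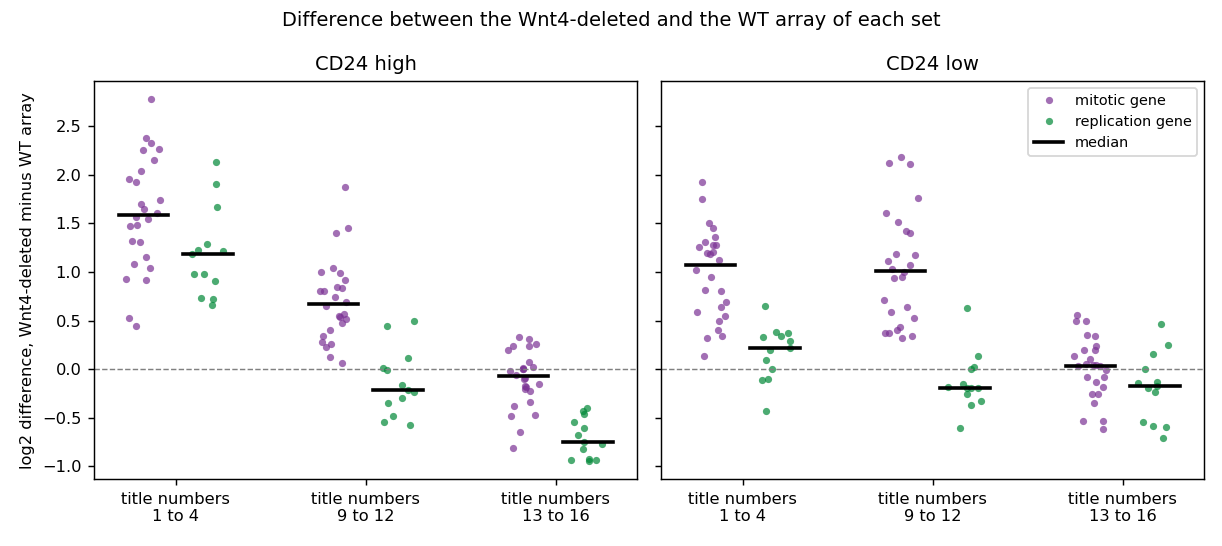
Log2 difference between the Wnt4-deleted and the WT array of the same set, for each mitotic (purple) and replication gene (green), in CD24 high (left) and CD24 low cells (right); black lines are medians. The mitotic medians are 1.59, 0.67 and -0.08 in CD24 high and 1.07, 1.02 and 0.04 in CD24 low cells, and the replication medians fall below 0 in the sets 9 to 12 and 13 to 16.

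Of the mitotic genes 6 were higher in the Wnt4-deleted array in all 6 pairs: the kinetochore genes Cenpe, Cenpf and Ndc80, the spindle motor gene Kif11, Nusap1 and Mki67. No replication gene was, and 1.31% of all genes were. For Cenpf the 6 differences were 2.04, 1.0 and 0.31 in CD24 high cells and 1.45, 1.51 and 0.35 in CD24 low cells, smallest in the set 13 to 16 in both fractions. For Mki67 they were 1.61, 1.40 and 0.02 in CD24 high cells and 1.28, 2.18 and 0.49 in CD24 low cells. In the set 13 to 16 the difference was also small for Kif11 in CD24 high cells (0.07). The same held for Ndc80 (0.05) and Nusap1 (0.03) in CD24 low cells. The labels do not say whether the pairs of a set share animals.

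With the set as a fixed block in limma the differences stayed the same. In CD24 high cells 10 of 26 mitotic genes then had an unadjusted p under 0.05, all higher in Wnt4-deleted cells, against 1.23% of all genes, with the smallest for Ndc80. In CD24 low cells 8 of 26 did, against 1.67% of all genes, with the smallest for Prc1. Cenpe, Cenpf, Kif11 and Mki67 were among them in both fractions. Of the replication genes 0 of 13 did in either fraction. After adjustment over all genes 0 members were called in either fraction with the block, and every adjusted p was 1 in limma. Prc1 read 7.66, 6.28 and 5.62 in Wnt4-deleted CD24 low cells, against 6.64, 5.09 and 5.06 in WT CD24 low cells (difference 0.93), and was higher in the Wnt4-deleted array of each set.

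The effect of Wnt4 deletion was not shown to differ between the fractions. The difference of the effects, CD24 low minus CD24 high, had a median of -0.02 over the mitotic (-0.61 to 0.50) and of -0.15 over the replication genes (-0.48 to 0.07), against 0.00 over all genes. In limma 0 of 39 members were called, as were 0% of all genes, and 0 members and 1.37% of all genes had an unadjusted p under 0.05. For Mki67 the difference of effects was 0.31 (SE 1.19), for Top2a 0.16 (SE 1.42), for Mcm2 -0.01 (SE 0.83) and for Pcna 0.07 (SE 0.34). In each of the 4 the standard error exceeded the difference.

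The sorted fractions themselves were compared within each genotype. In Wnt4-deleted cells 1 of 39 members was called, against 16.4% of all genes (8.23% higher). Gins2 read 8.30, 8.02 and 7.80 in CD24 high cells, against 7.64, 6.79 and 7.17 in CD24 low cells. All CD24 high arrays were above all CD24 low arrays, as for 15.1% of all genes, and Gins2 was higher by 0.84 (SE 0.24, 1.79-fold, limma adjusted p = 0.0366). The call was lost without any one of arrays 4, 10, 11, 12, 13, 15 and 16, with adjusted p up to 0.133 in limma, without the set 9 to 12 (difference 0.64, limma adjusted p = 0.304), without the set 13 to 16 (0.94, limma adjusted p = 0.184), and where only the 2 groups were fitted (limma adjusted p = 0.0831). Aurka read 7.30, 7.0 and 6.90 in CD24 high cells, against 6.69, 6.49 and 6.30 in CD24 low cells, also without overlap, and missed the threshold (difference 0.57, SE 0.18, limma adjusted p = 0.0542). With the set as a fixed block Aurka passed (limma adjusted p = 0.0432), where 18.8% of all genes were called.

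Pcna went the other way in Wnt4-deleted cells, with 10.98, 9.98 and 10.15 in CD24 high cells, against 10.81, 10.75 and 11.32 in CD24 low cells. Array 4 alone was within the CD24 low range (difference -0.59, SE 0.24, limma adjusted p = 0.134). Without array 4, Pcna and Rrm1 were called lower in CD24 high cells, where 13.6% of all genes were called in either direction, with log2 differences of -0.89 and -1.35 (limma adjusted p up to 0.00909). Birc5 read 8.42, 6.64 and 6.10 in CD24 high cells, against 7.06, 6.15 and 5.84 in CD24 low cells (difference 0.70, SE 0.51, limma adjusted p = 0.432). Anln, the cleavage furrow protein anillin, read 8.83, 6.84 and 6.64 in CD24 high cells, against 8.11, 6.45 and 4.64 in CD24 low cells, where array 15 was by far the lowest (difference 1.04, SE 0.89, limma adjusted p = 0.52). Mki67 differed by -0.18 (SE 0.84), Top2a by 0.10 (SE 1.01) and Mcm2 by 0.42 (SE 0.58). Over the lists, the median difference was 0.14 for the mitotic genes (20 of 26 above 0) and 0.24 for the replication genes (9 of 13), against 51.1% of all genes above 0. These medians turned with single arrays: without array 4 they were -0.48 and -0.31, and without array 3 they were 0.71 and 0.61.

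In WT cells 0 of 39 members were called between the fractions in limma, against 16.1% of all genes, and 1 member, Gins2, had an unadjusted p under 0.05, against 26.4% of all genes. Gins2 read 7.64, 8.01 and 8.23 in CD24 high cells, against 7.75, 7.16 and 7.36 in CD24 low cells. Only array 2 lay within the CD24 low range (difference 0.54, SE 0.24, limma adjusted p = 0.184). Rrm1 read 6.75, 7.40 and 7.55 in CD24 high cells, against 8.37, 8.23 and 8.07 in CD24 low cells (difference -0.99, SE 0.45, limma adjusted p = 0.192). Pcna read 10.25, 10.46 and 10.55 in CD24 high cells, against 10.81, 10.95 and 11.07 in CD24 low cells (difference -0.52, SE 0.24, limma adjusted p = 0.202). For these 2 genes the fractions did not overlap, with CD24 high cells the lower, as for 15.7% of all genes. Both were called when only the WT groups were fitted (limma adjusted p up to 0.0381), where 17% of all genes were called.

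Of the mitotic genes in WT cells, Aurka read 6.77, 6.43 and 6.90 in CD24 high cells, against 6.35, 6.13 and 6.64 in CD24 low cells, higher by a similar step in each set (difference 0.32, SE 0.18, limma adjusted p = 0.305). Anln read 7.35, 6.38 and 6.85 in CD24 high cells, against 6.91, 4.35 and 5.18 in CD24 low cells (difference 1.38, SE 0.89, limma adjusted p = 0.385). Prc1 read 6.89, 5.93 and 5.89 in CD24 high cells, against 6.64, 5.09 and 5.06 in CD24 low cells (difference 0.64, SE 0.64, limma adjusted p = 0.62). It was called with the set as a fixed block (limma adjusted p = 0.0445), where 18.2% of all genes were called. The groups overlapped for all 3. Mki67 differed by 0.13 (SE 0.84), Top2a by 0.26 (SE 1.01) and Mcm2 by 0.41 (SE 0.58). The list medians were 0.06 for the mitotic and 0.02 for the replication genes. Without the set 1 to 4, 5 of 39 members were called in WT cells, against 17% of all genes: Mcm6 (1.34), Gins2 (0.86), Prc1 (0.83) and Gins1 (0.72) higher and Rrm1 (-0.68) lower in CD24 high cells. In Wnt4-deleted cells 4 of 39 were, against 18% of all genes: Mcm6 (1.04) and Gins2 (0.93) higher, and Rrm1 (-1.13) and Pcna (-0.97) lower. Gins2, Mcm6 and Rrm1 were in both counts. Mcm6 and Gins1 are named here after their values were seen.

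**Figure D5:**
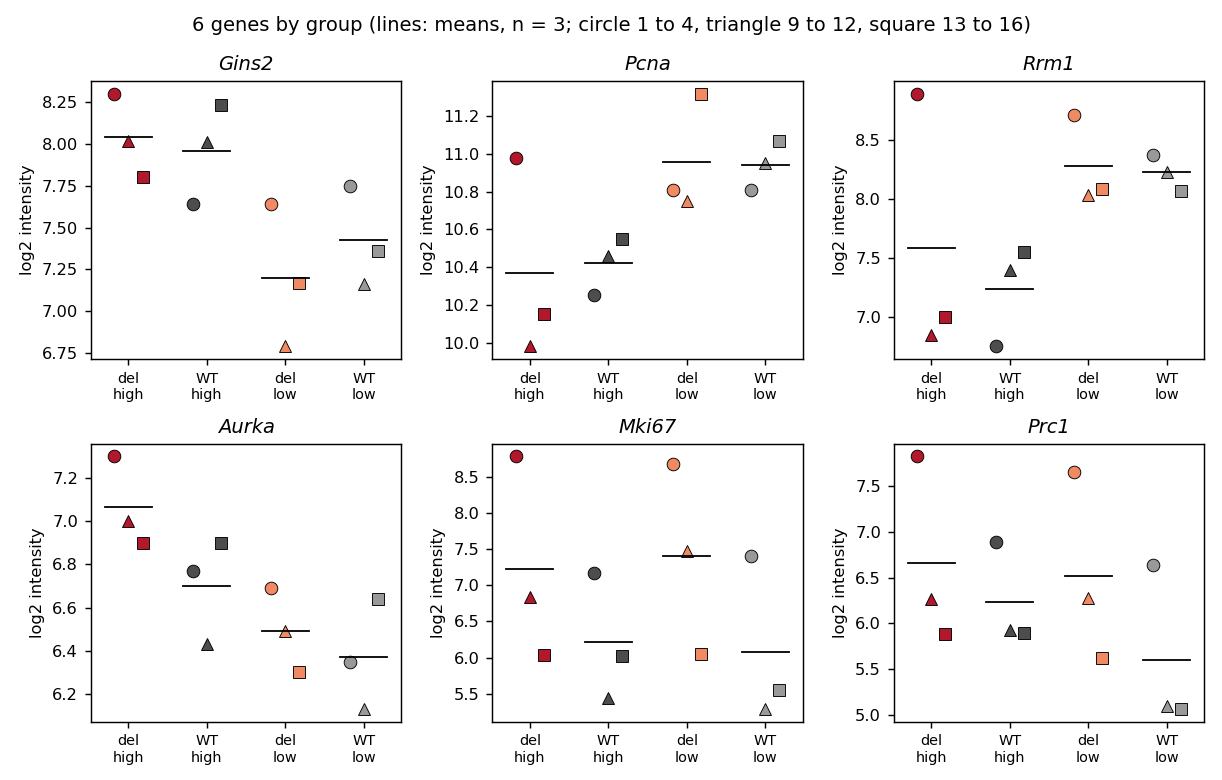
Log2 intensity of 6 genes on the 12 arrays by group (del, Wnt4-deleted; high and low, CD24 level); circles, triangles and squares are the sets 1 to 4, 9 to 12 and 13 to 16, and lines are means of 3 arrays. Each panel has its own scale and none starts at 0. Gins2 is above all CD24 low arrays in Wnt4-deleted CD24 high cells, Pcna and Rrm1 are below in WT CD24 high cells, and Mki67 and Prc1 are highest in the first set.

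Other genes of the same processes followed the members. Of 60 other mitotic genes, 58 had a higher mean in Wnt4-deleted than in WT cells in CD24 high cells, against 43.4% of all genes. In CD24 low cells 58 did, against 45.4% of all genes. The medians were 0.46 and 0.44, and 0 were called in either fraction. Without array 4, 29 of 60 were above 0 in CD24 high cells (median -0.02). Without array 3, 33 of 60 were above 0 in CD24 low cells (median 0.02). Without both arrays of the first set, 40 of 60 were above 0 in CD24 high cells (median 0.05). In CD24 low cells 51 of 60 then were (median 0.27). Their within-set medians in CD24 high cells were 1.25, 0.30 and -0.11 in the sets 1 to 4, 9 to 12 and 13 to 16. In CD24 low cells these medians were 0.66, 0.48 and -0.02 in the same order. The smallest p in CD24 high cells was that of Cenpa, the centromeric histone, with means of 7.10 ± 0.69 in Wnt4-deleted and 6.06 ± 0.40 in WT cells (SD, n = 3 each; difference 1.03). In CD24 low cells it was that of Hmgb2, a chromatin protein of dividing cells, with 9.86 ± 0.35 in Wnt4-deleted and 9.14 ± 0.32 in WT cells (difference 0.73). In both cases the adjusted p was 1 in limma. Of 50 other replication genes, 38 and 33 were above 0 in CD24 high and CD24 low cells, against 43.4% and 45.4% of all genes. Their medians were 0.06 and 0.08, and 0 were called.

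Between the fractions, few of the other replication genes were called. In WT cells 4 of 50 were (8%, 3 lower and 1 higher in CD24 high cells), against 16.1% of all genes, and in Wnt4-deleted cells 2 of 50 were (4%), against 16.4% of all genes. Ccne1, the cyclin E that starts S phase, averaged 6.04 ± 0.22 in CD24 high and 7.42 ± 0.47 in CD24 low WT cells (difference -1.38, limma adjusted p = 0.007). In Wnt4-deleted cells it averaged 6.20 ± 0.57 in CD24 high and 7.20 ± 0.18 in CD24 low cells (difference -1.0, limma adjusted p = 0.0367). Slbp, which binds histone messenger RNA, was lower in WT CD24 high cells by 0.76 on the log2 scale, at 7.48 ± 0.37 in CD24 high and 8.24 ± 0.09 in CD24 low cells (limma adjusted p = 0.0264). The maintenance DNA methyltransferase Dnmt1 was higher in CD24 high cells in both genotypes. It averaged 9.11 ± 0.27 in CD24 high and 8.33 ± 0.38 in CD24 low Wnt4-deleted cells (difference 0.78, limma adjusted p = 0.0245), and 9.10 ± 0.04 in CD24 high and 8.35 ± 0.27 in CD24 low WT cells (difference 0.75, limma adjusted p = 0.0296). Of the 60 other mitotic genes 0 were called in either genotype.

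Some members were dim on these arrays. When genes under the 40th percentile of mean intensity were left out, 28 of 39 members stayed, 17 of 26 mitotic and 11 of 13 replication genes, and 0 of these were called between genotypes in either fraction. Cenpe, Cenpf and Nusap1 were among the members left out, at percentiles of 33.1, 37.7 and 34.1.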

How the data were processed

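RNA of lineage-depleted, sorted cells was taken up in Trizol, and after amplification and biotin labelling (Ovation kits) it was hybridised to Affymetrix arrays, 12 arrays in 4 groups of 3. The deposited log2 values were made by the authors with RMA in Affymetrix Expression Console 1.1.2800, per the labels. RMA corrects background, normalises between arrays and summarises the probes of each probeset. No scanner files were used here. The table held 35556 probesets, of which 21789 had 1 gene symbol, 1621 several and 12146 no entry in the platform annotation. The 19938 genes are those with a single symbol, each by its probeset of highest mean (999 had several). No pair of arrays was identical.

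Group means were fitted to all 12 arrays with limma 3.58.1 in R 4.3.3 (lmFit, eBayes, 8 residual degrees of freedom), two-sided, with Benjamini-Hochberg adjustment over all genes per comparison and a threshold of 0.05. The sets of title numbers were tested with a moderated F test. Differences are log2, Wnt4-deleted minus WT or CD24 high minus CD24 low. The script was tested on simulated data. The members and lists were chosen with earlier results of these data known. Values per array are given for Mki67, Top2a, Pcna and Mcm2 and, in each comparison, for the 3 mitotic and 2 replication members with the smallest p and any called member; Cenpf in CD24 high cells is named after its values were seen. Promoter sequences are from RefSeq, build GRCm38.p6. Alternatives were a filter at the 40th percentile, the mean of probesets, median centring, a second quantile normalisation, a trended and robust prior, array weights, the compared groups alone, the set as a fixed or random block, and each array or set left out.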

Additional observations from a re-analysis of the deposited data

How the results depend on the processing

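Between genotypes 0 members were called under any alternative. The medians depended on single arrays. With an array or set left out, the Wnt4-deleted minus WT median in CD24 high cells ran from 0.13 to 1.17 over the mitotic genes (0.74 with all arrays) and from -0.45 to 0.51 over the replication genes (0.07). In CD24 low cells it ran from 0.05 to 1.13 (0.60) and from -0.44 to 0.17 (-0.02). With array weights the CD24 high medians were 0.31 and -0.26. Between Wnt4-deleted fractions the medians were -0.28 and -0.17 with array weights, against 0.14 and 0.24 without. Between the fractions in WT cells, 0 members were called, against 1 with array weights, 2 with only the groups compared and 1 with the set as a fixed block, where 26.2%, 17% and 18.2% of all genes were called. With an array or set left out 0 to 5 members were called, against 6.72% to 17.7% of all genes. In Wnt4-deleted cells the count of 1 became 2 with the filter, median centring, the second quantile normalisation, array weights and the fixed or random block. It became 0 with only the groups compared, and 11.2% to 26% of all genes were called in these settings. With an array or set left out it ran from 0 to 4, against 6.77% to 18.2% of all genes. For the sets the count of 1 became 2 with the second quantile normalisation and 19 with array weights, against 0.0552% and 1.9% of all genes. With an array left out it ran from 0 to 34, against 0% to 5.65% of all genes. The cause was not tested.

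Some small differences changed sign. With median centring Mcm2 in CD24 high cells was 0.02. With array weights Rrm1 in CD24 high cells was -0.21, Cdc45 in CD24 high cells -0.08, Pcna in CD24 low cells -0.02, the difference of effects of Mcm2 0.42, Mki67 between WT fractions -0.09 and Top2a between Wnt4-deleted fractions -0.75. With an array or set left out, the Wnt4-deleted minus WT difference in CD24 high cells ran from -0.44 to 0.16 for Pcna, -0.68 to 0.47 for Mcm2, -0.55 to 0.79 for Rrm1 and -0.20 to 0.67 for Cdc45. In CD24 low cells it ran from -0.16 to 0.13 for Pcna and -0.62 to 0.38 for Mcm2. The difference of effects ran from -0.33 to 1.09 for Mki67, -0.72 to 1.08 for Top2a, -0.22 to 0.47 for Pcna and -0.61 to 0.67 for Mcm2. Between WT fractions it was -0.35 to 0.79 for Mki67 and -0.28 to 1.1 for Top2a. Between Wnt4-deleted fractions it was -0.96 to 0.46 for Mki67, -0.82 to 0.98 for Top2a and -0.26 to 1.02 for Mcm2.

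The labels give the groups no shared replicate numbers, so the pairing used was the set of title numbers. As a fixed block it changed no call between genotypes, and the correlation within sets was 0.05 over all genes. With 3 arrays a group, standard errors of the members reached 1.01 between genotypes.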
